A study of Mus musculus with 12 samples.

Results

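The levels of 9 genes in wide use as markers of epithelial progenitor cells and tumor stem cells were followed across the study. These were *Epcam*, *Prom1*, *Cd44*, *Cd24a*, *Aldh1a1*, *Bmi1*, *Itga6*, *Ly6a* and *Clu*, which make up 9 of the 47069 genes in the count table. They were chosen by name, with earlier results of these data known. Each name matched 1 Ensembl gene, and all 9 passed the filter on low counts that left 16157 genes for testing. RNA was sequenced from cells of organoids labelled as mouse liver cancer on the C57BL/6 background with the genotype LGR5-DTRGFP+, in which a diphtheria toxin receptor fused to green fluorescent protein (GFP) is expressed from the *Lgr5* locus. The organoids were grown from liver tumors induced with the carcinogen DEN, and how many lines or clones these libraries represent is not given in the sources used here. Cells were sorted on GFP after CD45-stained and dead cells had been gated out. There were 4 groups of 3 libraries, namely untreated LGR5-, untreated LGR5+, 5-FU-treated LGR5- and 5-FU-treated LGR5+ cells, all of them carrying the reporter. 5-FU (5-fluorouracil) is a chemotherapeutic antimetabolite that resembles uracil, and the dose and time used for these libraries are not given in the sources used here.

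Most of these markers are surface proteins by which stem-like cells have been sorted from tissues and tumors. EPCAM is an adhesion protein of simple epithelia, PROM1 (CD133) sits on membrane protrusions, CD44 binds hyaluronan, CD24A is a small lipid-anchored and heavily glycosylated protein, ITGA6 pairs with a beta integrin to bind laminin, and LY6A (Sca-1) is a lipid-anchored protein of the LY6 family. ALDH1A1 oxidises retinaldehyde to retinoic acid, BMI1 is a subunit of polycomb repressive complex 1, and CLU (clusterin) is a secreted chaperone. *Ly6a* and *Clu* are also known as markers of the fetal-like state that the intestinal epithelium takes on during repair, whereas *Prom1* and *Epcam* are used for biliary and liver progenitor cells.

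Depth lay between 13750591 and 19323514 counted reads per library, where a count of 0 allows up to 3 reads, or 0.155 to 0.218 CPM (counts scaled to library size). The lowest count of any marker was 132 reads, of *Prom1*. Mitochondrial genes took 1.47% to 3.08% of the reads in 10 libraries, but 6.93% in untreated and 6.44% in 5-FU-treated LGR5- replicate 3. *Lgr5* itself, the gene behind the sort, did not separate the gates: the difference of LGR5+ from LGR5- cells was -0.17 (95% interval -0.67 to 0.33, adjusted p = 1) on the log2 scale in untreated and 0.11 (95% interval -0.39 to 0.61, adjusted p = 0.84) in treated cells, so LGR5+ and LGR5- name the sorted gates only. The summed level of 6 epithelial markers was 2217 to 14982 CPM and that of 6 cholangiocyte markers 1142 to 10489. The 8 hepatocyte markers summed to 1.76 to 4.18 CPM, with *Serpina1a* and *Cyp3a11* at 0 and *Alb*, the serum albumin gene, at 2 to 33 reads, so the defining genes of hepatocytes were near absent. All 7 alveolar type 2 cell markers were detected in every library, and their sum, most of it *Sftpc*, was 3062 to 17501 CPM. The labelled tissue was thus not borne out by hepatocyte markers, a marker of lung epithelium was abundant, and the tissue and gate names are used below only as the labels give them. The study types tumor organoids as cholangiocarcinoma-like by EPCAM and CK19 (*Krt19*), and as hepatocellular carcinoma-like by HNF4A and AFP. *Epcam* stood at 674 to 1482 and *Krt19* at 374 to 4482 CPM, while *Hnf4a* had 0 to 2 reads. *Afp* was called higher on 5-FU by edgeR, with a log2 fold change of 1.31 in LGR5+ and 1.43 in LGR5- cells. The 12 leukocyte markers summed to 40.8 to 185 CPM, with *Cd14* at 418 to 1077, *Lyz2* at 65 to 1340 and *Cd68* at 98 to 932 reads, while *Ptprc* (CD45) had 3 to 36 reads and *Cd3e* and *Cd3g* were at 0 in all libraries. The lists for mast cells, endothelial cells and fibroblasts summed to 10.3 to 18.8, 10.5 to 20.5 and 26.2 to 60.9 CPM. Of all pairs of libraries, the most alike were untreated LGR5- replicate 1 and untreated LGR5+ replicate 1, which carry opposite gate labels. Their counts differed by a chi-square per degree of freedom of 4.42, above the value of 1 that sampling noise gives but below the 15.1 to 124 of the pairs within groups. With the LGR5- or the LGR5+ library of this pair left out, edgeR called 0 genes between the untreated gates, with 542 and 381 at an unadjusted p under 0.05 against 214 with all libraries, and *Clu*, *Ly6a*, *Cd44* and *Prom1* were still called on 5-FU in the gate that had lost a library.

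After 5-FU, *Clu*, *Ly6a* and *Cd44* rose and *Prom1* fell in both gates, while the other 5 markers did not pass the test in either. In LGR5+ cells *Clu* was 9.17-fold, *Ly6a* 8.87-fold and *Cd44* 3.15-fold higher, and *Prom1* was 1.97-fold lower. In LGR5- cells *Clu* was 4.40-fold, *Ly6a* 9.13-fold and *Cd44* 3.29-fold higher, and *Prom1* was 2.71-fold lower. Thus 4 of the 9 markers were called in each gate at an adjusted p under 0.05 (edgeR's quasi-likelihood test, Benjamini-Hochberg over 16157 genes), beside 16.0% of all tested genes in LGR5+ and 15.4% in LGR5- cells. The 3 that rose stand beside 9.66% and 8.30% of all genes called higher, and the 1 that fell beside 6.37% and 7.11% called lower. The median log2 fold change of the 9 was 0.46 in LGR5+ and 0.13 in LGR5- cells, against -0.02 and -0.05 over all genes. The labels do not say whether the 3 libraries of a group came from separate cultures, so these p-values measure the spread between libraries only. In bulk libraries, fewer cells of a type and less RNA per cell cannot be told apart.

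Counted without a model, the treated and untreated libraries did not overlap for 6 of 9 markers in LGR5+ cells, 5 of them higher and 1 lower, beside 42.3% of all genes (22.3% higher and 20.0% lower). In LGR5- cells this held for 5 of 9, 3 higher and 2 lower, beside 27.1% of all genes (13.7% and 13.4%). At an unadjusted p under 0.05, 5 markers passed in each gate, beside 30.1% and 28.7% of all genes. With an absolute log2 fold change over 1.5 required as well, *Clu*, *Ly6a* and *Cd44* passed in each gate, beside 7.23% and 7.00% of all genes. The 4 calls in LGR5- cells held without both LGR5- replicate 3 libraries, where the log2 fold change was 2.15 for *Clu*, 2.78 for *Ly6a*, 1.75 for *Cd44* and -1.32 for *Prom1*. The plot of CPM by library shows the 9 genes side by side.

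**Figure D1:**
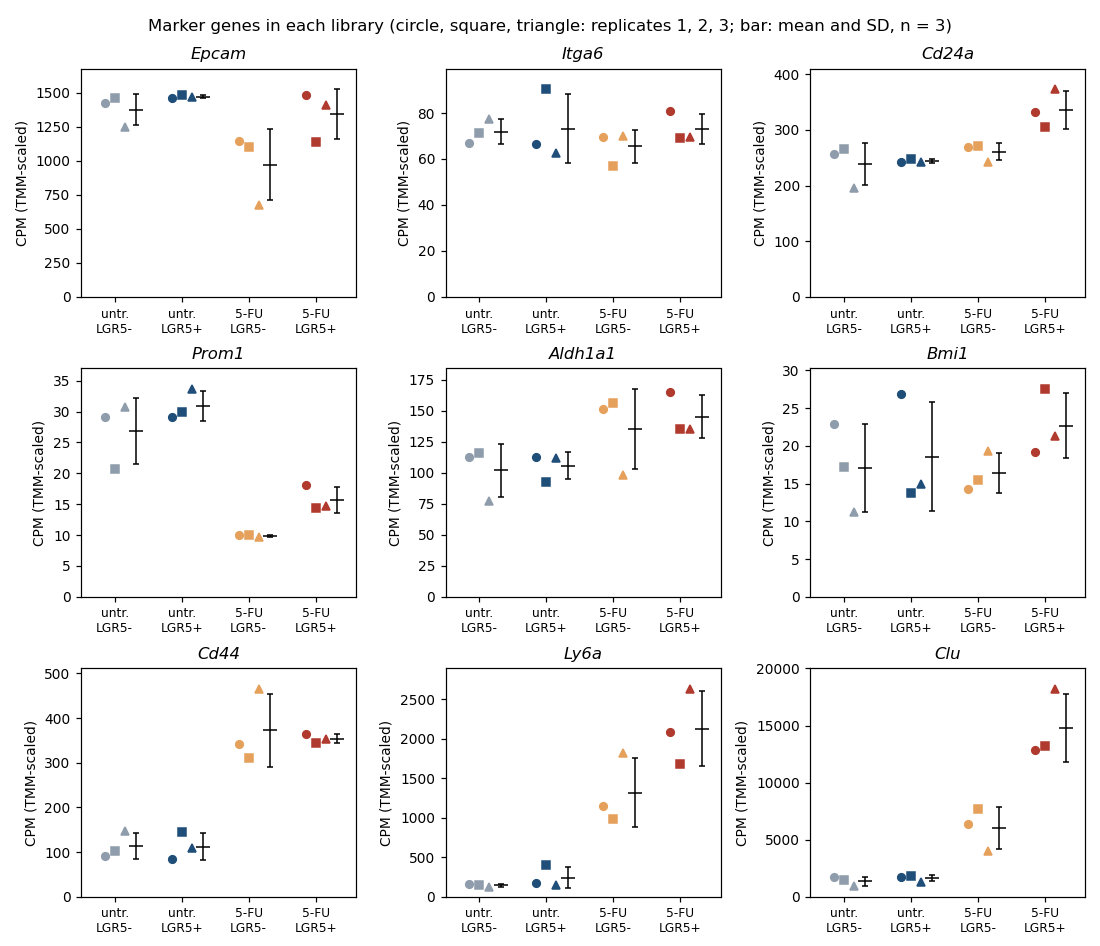
CPM after TMM scaling (vertical axis, from 0) of the 9 markers in the 12 libraries by group (horizontal axis), with a circle, square and triangle for replicates 1, 2 and 3 and a bar for the mean and SD of 3 libraries. *Ly6a* lay between 985 and 2628 CPM and *Clu* between 3984 and 18182 in the 6 treated libraries, above all untreated ones, whereas *Prom1* lay between 9.68 and 18.0 CPM, below them.

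*Clu* (ENSMUSG00000022037, chromosome 14 from 65968483 to 65981547, forward strand on GRCm38, as are all positions given here) had the highest level of the 9 after treatment. *Clu* stood at 1713, 1453 and 928 CPM in the untreated LGR5- libraries and at 1740.3, 1786 and 1296 in the untreated LGR5+ libraries. After 5-FU it stood at 6387, 7659 and 3984 CPM in the LGR5- and at 12857, 13195 and 18182 in the LGR5+ libraries. All 6 treated libraries were above all 6 untreated libraries, and the treated LGR5+ libraries were above the treated LGR5- libraries. The log2 fold change on 5-FU was 3.20 (SE 0.34, adjusted p = 2.1e-05) in LGR5+ and 2.14 (SE 0.32, adjusted p = 5.7e-04) in LGR5- cells. The mean share of all counted reads that fell on *Clu* was 0.162% in the untreated and 1.40% in the treated LGR5+ libraries. For the LGR5- libraries it was 0.135% and 0.617%.

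*Ly6a* (ENSMUSG00000075602, chromosome 15 from 74994877 to 74998031, reverse strand) has a close relative on the same chromosome, *Ly6c1* (ENSMUSG00000079018, chromosome 15 from 75044018 to 75048830, reverse strand), another surface protein gene of the LY6 family. Their longest open reading frames are identical at 66.9% of aligned positions, with a longest identical run of 45 bases. The first 90 bases of each from the GENCODE M21 transcripts, 5′ to 3′, show how few bases tell the genes apart at their start, with the 4 bases that differ in capitals:
Ly6a: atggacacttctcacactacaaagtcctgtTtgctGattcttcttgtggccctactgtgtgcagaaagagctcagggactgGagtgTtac
Ly6c1: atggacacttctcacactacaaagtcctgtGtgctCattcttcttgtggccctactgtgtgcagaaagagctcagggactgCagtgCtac
Of the 50-base words in its transcripts, *Ly6a* shares 18.97% with other genes, 195 of these 246 words with *Ly6c1*, and *Ly6c1* shares 32.8%, with *Ly6c2*, *Ly6a* and *Ly6i*. How the authors' counting treated reads that match several genes is not given in the sources used here, so the levels of both genes and their ratio are uncertain.

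*Ly6a* stood at 161, 150.4 and 122 CPM in the untreated LGR5- libraries and at 169, 396 and 154 in the untreated LGR5+ libraries. After 5-FU it stood at 1152, 985 and 1816 CPM in the LGR5- and at 2081, 1675 and 2628 in the LGR5+ libraries. The treated libraries were above all untreated libraries, although untreated LGR5+ replicate 2 stood at more than 2 times the other untreated ones. The log2 fold change was 3.15 (SE 0.37, adjusted p = 6.0e-05) in LGR5+ and 3.19 (SE 0.37, adjusted p = 9.5e-05) in LGR5- cells, and without untreated LGR5+ replicate 2 the former was 3.72. *Ly6c1* rose as well, with a log2 fold change of 2.73 (SE 0.33, adjusted p = 7.3e-05) in LGR5+ and 2.77 (SE 0.33, adjusted p = 1.1e-04) in LGR5- cells. Within libraries, the ratio of *Ly6a* to *Ly6c1* per kb of exon was 9.96, 10.8 and 7.91 in untreated and 11.4, 13.9 and 14.5 in treated LGR5+ libraries. It was 8.47, 8.22 and 9.53 in untreated and 11.2, 12.6 and 11.4 in treated LGR5- libraries, again without overlap. The part of shared reads in the rise of *Ly6c1* was not tested.

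*Cd44* (ENSMUSG00000005087, chromosome 2 from 102811141 to 102901665, reverse strand), the hyaluronan receptor, had a similar fold change in both gates. *Cd44* stood at 91.5, 102 and 146 CPM in the untreated LGR5- libraries and at 83.4, 145 and 109 in the untreated LGR5+ libraries. After 5-FU it stood at 343, 310.2 and 465 CPM in the LGR5- and at 364, 344 and 353 in the LGR5+ libraries. Every treated library exceeded every untreated one, and the gates overlapped under each condition. The log2 fold change was 1.66 (SE 0.25, adjusted p = 3.8e-04) in LGR5+ and 1.72 (SE 0.25, adjusted p = 3.9e-04) in LGR5- cells. The study lists *Cd44* among pathway genes picked on these same libraries, so its rise is not independent evidence for that list. *Cd44*, like *Clu* and *Epcam*, shares no 50-base word with another gene.

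*Prom1* (ENSMUSG00000029086, chromosome 5 from 43993620 to 44102032, reverse strand) was the 1 marker called lower. *Prom1* stood at 29.1, 20.7 and 30.7 CPM in the untreated LGR5- libraries and at 29.1, 29.9 and 33.6 in the untreated LGR5+ libraries. After 5-FU it stood at 10.01, 9.95 and 9.68 CPM in the LGR5- and at 18.0, 14.4 and 14.7 in the LGR5+ libraries. The treated libraries were below all untreated libraries, and the treated LGR5- libraries were the lowest, within a narrow range. The log2 fold change was -0.98 (SE 0.18, adjusted p = 0.0021) in LGR5+ and -1.44 (SE 0.19, adjusted p = 1.7e-04) in LGR5- cells. Among tested genes ranked by CPM per kb, *Prom1* stood at percentile 57.0 untreated and 42.6 treated in LGR5+ cells, and at 53.7 and 31.7 in LGR5- cells. Its paralog *Prom2*, which encodes another pentaspan protein of membrane protrusions, stood at 4.85, 3.99 and 7.23 CPM in untreated and 4.72, 6.71 and 6.96 in treated LGR5+ libraries. Its log2 fold change was 0.19 (95% interval -0.51 to 0.90, adjusted p = 0.74) in LGR5+ and 0.47 (95% interval -0.25 to 1.18, adjusted p = 0.39) in LGR5- cells. The antisense gene *Gm16401* covers 5.91% of the exon bases of *Prom1* and held 20 reads over all libraries against 4269 for *Prom1*, and since the strand setting of the counting is not given in the sources used here, reads of the pair cannot be told apart there.

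The remaining 5 markers were not called by edgeR's fit of all 12 libraries in either 5-FU comparison, and their intervals bound the change. Other fits called *Cd24a* in 2 settings and *Aldh1a1* in 1, both in LGR5+ cells. *Epcam* (ENSMUSG00000045394, chromosome 17 from 87635979 to 87651129, forward strand) was the most abundant of the 9 per kb of exon in untreated cells. *Epcam* stood at 1419.7, 1457 and 1246 CPM in the untreated LGR5- libraries and at 1463, 1482 and 1466 in the untreated LGR5+ libraries. After 5-FU it stood at 1142, 1097 and 674 CPM in the LGR5- and at 1482, 1134 and 1406 in the LGR5+ libraries. The treated LGR5- libraries lay below the untreated ones without overlap, replicate 3 lowest in both groups, and the LGR5+ groups overlapped. The log2 fold change was -0.50 (95% interval -0.99 to -0.01, adjusted p = 0.16) in LGR5- and -0.13 (95% interval -0.62 to 0.35, adjusted p = 0.75) in LGR5+ cells. Without both LGR5- replicate 3 libraries the former was -0.36.

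*Cd24a* (ENSMUSG00000047139, chromosome 10 from 43578284 to 43584265, forward strand), the mucin-type surface protein gene, showed 256, 265 and 195 CPM in untreated and 269, 271 and 243 in treated LGR5- libraries. In LGR5+ libraries it showed 242, 248 and 241 CPM untreated and 331.5, 305 and 373 treated. The LGR5+ groups did not overlap, with a log2 fold change of 0.46 (95% interval 0.09 to 0.84, adjusted p = 0.089). The LGR5- groups overlapped, with 0.13 (95% interval -0.25 to 0.50, adjusted p = 0.68). The LGR5+ difference passed the threshold with DESeq2 (adjusted p = 0.040) and in an edgeR fit of only the 6 LGR5+ libraries (adjusted p = 0.035). It shares 2.75% of its 50-base words with *Gm6212*.

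*Aldh1a1* (ENSMUSG00000053279, chromosome 19 from 20492715 to 20643465, forward strand) lies beside *Aldh1a7* (ENSMUSG00000024747, chromosome 19 from 20692953 to 20727562, reverse strand), a gene for a related aldehyde dehydrogenase, and their open reading frames of 1506 bases each are identical at 91.6% of positions, with a longest identical run of 100 bases. The first 90 bases, 5′ to 3′, differ at the 5 bases in capitals:
Aldh1a1: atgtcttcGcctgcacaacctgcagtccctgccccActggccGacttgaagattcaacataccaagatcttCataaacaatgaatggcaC
Aldh1a7: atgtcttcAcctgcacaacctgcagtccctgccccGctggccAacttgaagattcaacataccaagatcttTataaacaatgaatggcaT
Over the whole transcripts, 3.06% of the 50-base words of *Aldh1a1* are shared, all of them with *Aldh1a7*. Of the words of *Aldh1a7*, 7.49% are shared with *Aldh1a1*. How the counting treated reads that match both genes is not given in the sources used here, so their levels and ratio are uncertain.

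*Aldh1a1* stood at 113, 116 and 77.6 CPM in the untreated LGR5- libraries and at 113, 92.9 and 112 in the untreated LGR5+ libraries. After 5-FU it stood at 152, 156 and 98.2 CPM in the LGR5- and at 165, 135 and 135 in the LGR5+ libraries. In LGR5+ cells the treated libraries were above the untreated ones, whereas in LGR5- cells replicate 3 was low under both conditions and the groups overlapped. The log2 fold change was 0.46 (95% interval -0.00 to 0.92, adjusted p = 0.17) in LGR5+ and 0.41 (95% interval -0.05 to 0.87, adjusted p = 0.23) in LGR5- cells, and a fit of only the 6 LGR5+ libraries called the former (adjusted p = 0.042). *Aldh1a7*, in contrast, stood at 29.7, 26.0 and 31.3 CPM in untreated and 17.5, 7.37 and 9.59 in treated LGR5+ libraries. In LGR5- libraries it stood at 30.5, 30.7 and 17.3 and 17.2, 7.32 and 5.21 CPM. It was lower in all 3 treated than in all 3 untreated libraries of each gate, with -1.34 (SE 0.40, adjusted p = 0.034) in LGR5+ and -1.39 (SE 0.40, adjusted p = 0.030) in LGR5- cells. The call of *Aldh1a7* was lost in LGR5+ cells when any LGR5+ library other than treated replicate 1 was left out (adjusted p of 0.064 to 0.15 from edgeR), and in LGR5- cells without untreated replicate 1 or 2 or treated replicate 2 or 3 (0.097 to 0.12). It was lost in both gates without the filter on low counts, and in LGR5- cells also in the fit of only the LGR5- libraries and without both LGR5- replicate 3 libraries. Within libraries, *Aldh1a1* was at 1.59, 1.496 and 1.49 times *Aldh1a7* per kb of exon in untreated and at 3.96, 7.68 and 5.89 times in treated LGR5+ cells. In LGR5- cells the ratio was 1.55, 1.58 and 1.87 untreated and 3.68, 8.92 and 7.89 treated, and replicate 1 had the lowest treated ratio in both gates.

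**Figure D2:**
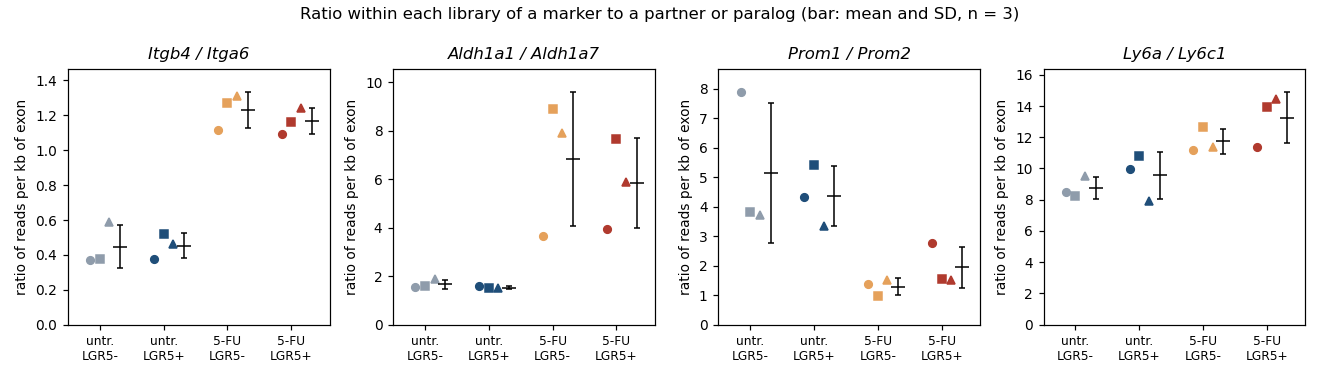
Ratio of CPM per kb of exon (vertical axis, from 0) of a marker to its paralog, or of *Itgb4* to its partner *Itga6*, within each of the 12 libraries by group (horizontal axis), with the mean and SD of 3 libraries. The ratios of *Itgb4* to *Itga6*, of *Aldh1a1* to *Aldh1a7* and of *Ly6a* to *Ly6c1* are higher in all 6 treated than in all 6 untreated libraries, and that of *Prom1* to *Prom2* is lower in the treated libraries of each gate.

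*Bmi1* (ENSMUSG00000026739, chromosome 2 from 18677018 to 18686629, forward strand), the polycomb gene, and *Itga6* (ENSMUSG00000027111, chromosome 2 from 71745616 to 71858416, forward strand), the integrin chain, were the 2 markers whose groups overlapped in every comparison. *Bmi1* ranged from 11.3 to 27.5 CPM over the 12 libraries, with a log2 fold change of 0.29 (95% interval -0.32 to 0.90, adjusted p = 0.54) in LGR5+ and -0.06 (95% interval -0.68 to 0.55, adjusted p = 0.91) in LGR5- cells. *Itga6* ranged from 57.0 to 90.3 CPM, with -0.00 (95% interval -0.38 to 0.38, adjusted p = 1.0) in LGR5+ and -0.13 (95% interval -0.51 to 0.24, adjusted p = 0.67) in LGR5- cells. For *Itga6* these intervals reach from 0.701-fold to 1.30-fold, whereas for *Bmi1* a rise of up to 1.87-fold in LGR5+ cells lies within them. *Bmi1* shares 16.7% of its 50-base words, most of them with the pseudogene *Gm5946*, *Itga6* 5.31% and *Prom1* 5.10%.

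Between the sorted gates, edgeR's fit of all 12 libraries called no marker, while other fits called *Clu* between the treated gates, as given below. In untreated cells the count was 0 of 9, beside 0.00% of all genes (edgeR), and at an unadjusted p under 0.05 it was 0 markers beside 214 genes, or 1.32%. DESeq2 called no gene. The differences of LGR5+ from LGR5- cells lay between -0.01 and 0.73 on the log2 scale. The highest was that of *Ly6a*, 0.73 (95% interval -0.01 to 1.48, adjusted p = 1), which was 0.17 without untreated LGR5+ replicate 2. The gates failed to overlap for 1 marker, *Epcam*, which was higher in LGR5+ cells, beside 5.28% of all genes (2.70% higher and 2.57% lower), and its difference was 0.10 (95% interval -0.39 to 0.59, adjusted p = 1). For the other 7 markers the bounds of the 95% intervals lay between -0.53 and 0.90. No marker passed that rule with the log2 limit of 1.5 between the gates, where 0.458% of all genes did in untreated and 1.70% in treated cells.

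After 5-FU, edgeR likewise called 0 of 9 markers between the gates, beside 0.00% of all genes, although 2 markers, *Clu* and *Prom1*, had an unadjusted p under 0.05 beside 2095 genes, or 13.0%. *Clu* was 2.45-fold higher in the LGR5+ libraries (95% interval 1.54 to 3.91), a log2 fold change of 1.29 (SE 0.31, adjusted p = 0.32). In the treated cells same-numbered libraries deviated together, though no label says that the numbers mark shared sorts or cultures. This pairing was used as a block in an edgeR fit of the 6 treated libraries, chosen after seeing the data. There the log2 fold change of *Clu* was 1.25 with an adjusted p of 0.046. This was the 1 call among the 9 markers, beside 214 genes called higher and 237 lower of 15196. With the block over all 12 libraries, 0 genes were called. DESeq2, without the block, gave *Clu* 1.29 with an adjusted p of 0.0077, its 1 call among the 9 markers and among 75 genes in all. *Prom1* was 1.59-fold higher in LGR5+ cells (95% interval 1.21 to 2.09, adjusted p = 0.34). With the pairing its adjusted p was 0.064.

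The treated gates did not overlap for *Clu*, *Prom1* and *Cd24a*, all 3 higher in LGR5+ cells, beside 24.4% of all genes (14.2% higher and 10.2% lower). The difference was 0.37 (95% interval -0.01 to 0.74, adjusted p = 0.39) for *Cd24a*, 0.69 (95% interval -0.05 to 1.43, adjusted p = 0.40) for *Ly6a* and 0.47 (95% interval -0.02 to 0.95, adjusted p = 0.40) for *Epcam*. It was 0.47 (95% interval -0.14 to 1.08, adjusted p = 0.46) for *Bmi1*, and -0.07, 0.10 and 0.16 for *Cd44*, *Aldh1a1* and *Itga6*. The median of the 9 was 0.47, against 0.03 over all genes, and in untreated cells 0.10 against -0.02. Treated LGR5- replicate 3 had 6.44% mitochondrial reads. Without it, 896 genes had an unadjusted p under 0.05 between the treated gates in edgeR, against 2095 with all libraries. With 1 treated library left out, the difference ranged over 0.22 to 0.60 for *Epcam*, 0.56 to 0.74 for *Prom1* and 1.04 to 1.52 for *Clu*. The plot of fold changes sets the 4 comparisons side by side, and those on 5-FU share their libraries with those between gates.

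**Figure D3:**
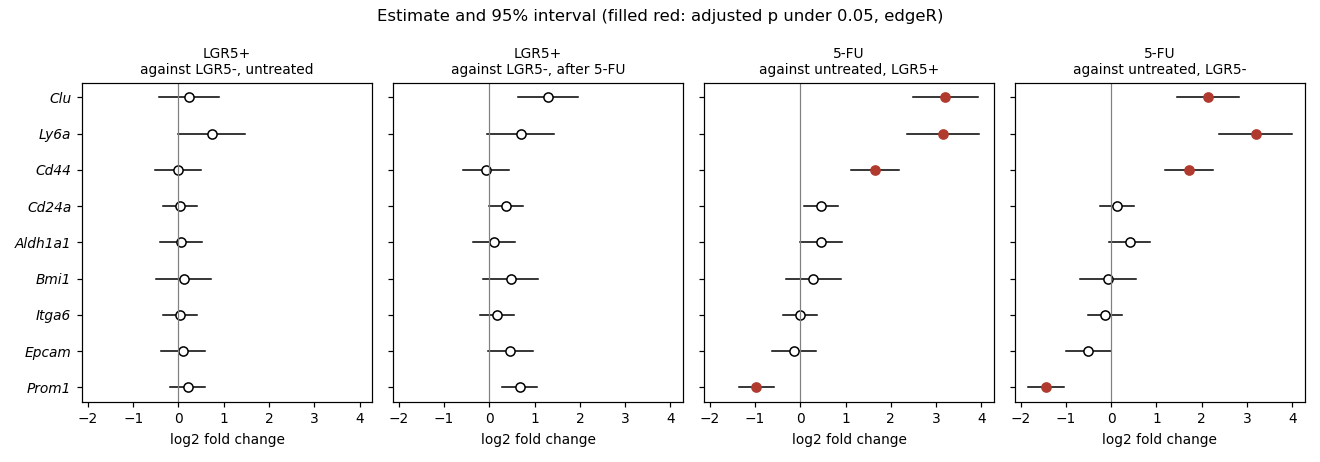
Log2 fold change (horizontal axis) with its 95% interval for each marker (vertical axis) in the 4 comparisons, filled where the adjusted p from edgeR was under 0.05. In the 2 panels on 5-FU, *Clu*, *Ly6a* and *Cd44* are filled to the right of 0 and *Prom1* to the left, and in the 2 panels on the gates no marker is filled.

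Whether the gates responded differently to 5-FU was tested by the interaction of gate and treatment. No marker was called, beside 0.00% of all genes (edgeR). At an unadjusted p under 0.05 there was 1 marker beside 254 genes, or 1.57%, with none past the log2 limit of 1.5 beside 0.427%, and DESeq2 called no gene. The marker with the lowest p was *Clu*, whose log2 response was 1.06 larger in LGR5+ cells (95% interval 0.12 to 1.99, adjusted p = 1.0 from edgeR, 0.029 unadjusted). The difference in response was -0.06 (95% interval -0.79 to 0.66, adjusted p = 1.0) for *Cd44*. For *Ly6a* it was -0.04 (adjusted p = 1.0), with an interval from 0.472-fold to 1.999-fold. The fall of *Prom1* was smaller in LGR5+ cells by 0.47 (95% interval -0.08 to 1.01, adjusted p = 1.0).

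Per kb of exon, the order of the markers changed with treatment. In untreated LGR5+ cells the level was 669.9 ± 4.80 CPM per kb for *Epcam*, 468 ± 78.7 for *Clu*, 199 ± 113 for *Ly6a* and 94.6 ± 1.45 for *Cd24a* (SD, n = 3). Next came *Aldh1a1* at 21.4 ± 2.28, *Cd44* at 16.6 ± 4.56, *Itga6* at 8.11 ± 1.66, *Bmi1* at 4.66 ± 1.82 and *Prom1* at 4.30 ± 0.338 CPM per kb. Neighbors in this order overlapped between libraries for *Aldh1a1* with *Cd44* and *Bmi1* with *Prom1*, and the order was the same in untreated LGR5- cells, with an overlap of *Ly6a* and *Cd24a* as well. In treated LGR5+ cells *Clu* led at 4290.1 ± 867 and *Ly6a* at 1766 ± 397 CPM per kb, ahead of *Epcam* at 611 ± 83.4, *Cd24a* at 130.4 ± 13.2 and *Cd44* at 52.2 ± 1.47, and no neighbors overlapped. *Prom1* stood last in treated cells, at 2.19 ± 0.285 CPM per kb in the LGR5+ and 1.38 ± 0.0241 in the LGR5- gate. In treated LGR5- cells *Clu* at 1749 ± 543 and *Ly6a* at 1093 ± 365 overlapped.

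The genes around each marker were followed as lists, whose 5-FU values are given first for LGR5+ and then for LGR5- cells, and in edgeR's fit of all 12 libraries no gene of any list was called between the gates or in the interaction. Between the treated gates, DESeq2 called *Lamb3*, *Col17a1*, *Itga3*, *Msn*, *Fhl2* and *Lypd3* of these lists higher in LGR5+ cells, among its 75 genes. The paired fit of the 6 treated libraries called the same 6 list genes higher with *Msln*, *Ccn2*, *Crabp2* and *Ly6g6c*, and *Axin2* and *Pcgf2* lower, among 214 higher and 237 lower genes. Without the filter on low counts *Col17a1* and *Lypd3* were called among 11 genes. Each list's counts stand beside 9.66% of all tested genes called higher and 6.37% called lower in the LGR5+ gate. In the LGR5- gate these shares were 8.30% and 7.11%. Partners of ITGA6 were called where *Itga6* itself was not. The beta chain that pairs with ITGA6 in hemidesmosomes, *Itgb4*, stood at 19.4, 36.3 and 22.5 CPM in untreated and 68.7, 62.4 and 67.4 in treated LGR5+ libraries. In LGR5- libraries it stood at 19.4, 20.8 and 35.5 and 60.3, 56.3 and 71.3. Its log2 fold change was 1.34 (SE 0.26, adjusted p = 0.0025) and 1.31 (SE 0.26, adjusted p = 0.0035), without overlap in either gate. Per kb of exon, the ratio of *Itgb4* to *Itga6* was 0.375, 0.517 and 0.461 untreated and 1.09, 1.16 and 1.24 treated in LGR5+ libraries. In LGR5- libraries it was 0.374, 0.376 and 0.588 and 1.12, 1.27 and 1.31, so it passed 1 in all 6 treated libraries and in no untreated one.

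Of 17 listed hemidesmosome and laminin partners of ITGA6, 16 were tested, and 9 rose in LGR5+ and 7 in LGR5- cells with none lower. Their median log2 fold change was 0.82 and 0.53, against -0.02 and -0.05 over all genes, the values to which the medians of the other lists compare as well. The laminin chain gene *Lamb3* had 1.76 (SE 0.20, adjusted p = 5.0e-05) and 1.06 (SE 0.20, adjusted p = 0.0031). *Cd151*, a tetraspanin gene whose product binds laminin receptors, had 0.75 (SE 0.24, adjusted p = 0.047) and 1.28 (SE 0.24, adjusted p = 0.0030).

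Among 36 other progenitor and tumor stem markers, 26 were tested, and 9 rose and 2 fell in LGR5+ cells, against 9 and 1 in LGR5- cells, with a median log2 fold change of 0.21 and 0.36. The biliary keratin gene *Krt19* had 2.95 (SE 0.31, adjusted p = 2.1e-05) and 2.35 (SE 0.30, adjusted p = 1.7e-04), *Krt7*, another biliary keratin gene, 2.64 (SE 0.34, adjusted p = 1.3e-04) and 1.75 (SE 0.33, adjusted p = 0.0029), and the adhesion receptor gene *Icam1* 2.07 (SE 0.21, adjusted p = 1.7e-05) and 1.44 (SE 0.21, adjusted p = 3.9e-04). The summed level of the 6 epithelial markers, *Krt19* and *Cdh1* among them, was 3103 to 3366 CPM in untreated and 10318 to 14982 in treated LGR5+ cells. In LGR5- cells it was 2217 to 3386 and 4792 to 10646 CPM, and 5 of the 6 rose in LGR5+ and 4 in LGR5- cells. Their part in the rise of the markers was not tested. The LGR5+ count of lower genes, *Lrig1* and *Fgfr2*, named here after their values were seen, was 1 when any LGR5+ library other than untreated replicate 3 was left out.

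The list of fetal-like and regenerating epithelium, to which *Ly6a* and *Clu* belong by their known use, held 25 other genes, of which 24 were tested. In each gate 19 rose and none fell, with a median log2 fold change of 1.81 in LGR5+ and 1.48 in LGR5- cells. The list was chosen with earlier results of these data known, so its count is not independent evidence. *Areg*, a growth factor gene of the EGF family, lay at 6.54, 10.5 and 6.16 CPM in untreated and 35.3, 42.8 and 47.5 in treated LGR5- libraries. Its log2 fold change was 2.91 (SE 0.24, adjusted p = 3.4e-06) and 2.43 (SE 0.23, adjusted p = 1.9e-05). *Anxa3*, an annexin gene, had 2.97 (SE 0.27, adjusted p = 7.4e-06) and 2.37 (SE 0.26, adjusted p = 6.6e-05), and *Ccn1*, a matricellular protein gene and known target of YAP, 2.77 (SE 0.26, adjusted p = 9.1e-06) and 2.16 (SE 0.25, adjusted p = 9.5e-05). Without both LGR5- replicate 3 libraries, 18 genes of the list rose in LGR5- cells.

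Of the 12 leukocyte markers 4 were tested, and *Lyz2* and *Cd68*, both expressed by macrophages, rose in each gate. *Lyz2* had 1.79 (SE 0.34, adjusted p = 0.0026) in LGR5+ and 3.56 (SE 0.37, adjusted p = 4.4e-05) in LGR5- cells, the latter beside a log2 fold change of 3.19 for *Ly6a* and 2.14 for *Clu* in that gate. The levels differed widely, as *Lyz2* reached at most 98.3 CPM in any library, *Ly6a* 2628 and *Clu* 18182. *Cd68* had 2.06 (SE 0.37, adjusted p = 0.0017) and 1.95 (SE 0.37, adjusted p = 0.0033). *Cd14*, also expressed by macrophages, was not called in either gate (log2 fold change 0.26 and 0.40, edgeR adjusted p = 0.55 and 0.34). The summed level of the list was 57.1 to 92.1 CPM in untreated and 119.8 to 185 in treated LGR5+ cells. In LGR5- cells it was 40.8 to 43.5 and 101 to 166 CPM. In reads per library, *Lyz2* reached 1340, *Cd14* 1077 and *Cd68* 932, *Ptprc*, *Csf1r* and *Adgre1* reached 36, 11 and 7, and *Cd3e* and *Cd3g* were at 0. The part of this list in the rise of *Ly6a* and *Clu* was not tested. Of the 7 alveolar type 2 cell markers 2 rose in each gate, while their sum was 4992 to 15842 CPM in untreated and 3062 to 6200.1 in treated LGR5+ cells and 3538 to 17501 and 4356 to 6446 in LGR5- cells. Of the endothelial and of the fibroblast markers 1 each fell in both gates, and no mast cell or hepatocyte marker was called. The 6 cholangiocyte markers, most of their sum from *Krt19* and *Krt7*, summed to 1390.2 to 1647 CPM in untreated and 6511 to 10489 in treated LGR5+ cells. In LGR5- cells they summed to 1142 to 1389 and 2751 to 6689 CPM, and 2 of the 5 tested rose in each gate. Their part in the rise of the markers was not tested.

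In the LY6 family, 14 of 22 listed genes were tested. In LGR5+ cells 8 rose and 2 fell, and in LGR5- cells 8 rose and 1 fell, with a median log2 fold change of 1.48 and 1.67. *Ly6d* had 3.90 (SE 0.42, adjusted p = 3.0e-05) and 3.74 (SE 0.42, adjusted p = 7.7e-05), and *Lypd3* 3.05 (SE 0.31, adjusted p = 1.7e-05) and 1.64 (SE 0.30, adjusted p = 0.0025), both genes for lipid-anchored surface proteins. *Ly6g6c* had 6, 11 and 2 reads in untreated and 411, 427 and 522 in treated LGR5+ libraries (adjusted p = 2.5e-06). *Pinlyp*, a phospholipase inhibitor gene, had 5, 5 and 4 and 140, 100 and 149 reads (adjusted p = 7.2e-06). At so few untreated reads a fitted fold change depends on the prior count and is not given. The LGR5+ count was 5 higher without untreated LGR5+ replicate 3, and 5 higher and 1 lower without treated LGR5+ replicate 3. When genes below 10 reads in any library were left out it was 4 higher and 1 lower, and in LGR5- cells 5 higher and 0 lower.

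Of 19 hyaluronan and CD44 partners, 16 were tested, with 3 higher and 2 lower in LGR5+ and 2 higher and 1 lower in LGR5- cells, at a median log2 fold change of 0.14 and 0.09. Over all genes, 16.0% were called in LGR5+ and 15.4% in LGR5- cells, so the LGR5- count of the list lay near the share of all genes. *Msn*, whose product moesin links CD44 to actin, had 1.45 (SE 0.16, adjusted p = 3.6e-05) and 1.01 (SE 0.16, adjusted p = 8.1e-04). The hyaluronidase gene *Hyal1* had 1.65 (SE 0.26, adjusted p = 5.8e-04) and 1.29 (SE 0.26, adjusted p = 0.0039). *Hmmr*, which encodes a hyaluronan-binding protein of the mitotic spindle, had -1.36 (SE 0.30, adjusted p = 0.0062) and -1.37 (SE 0.30, adjusted p = 0.0065). The hyaluronan synthase gene *Has1* had 21, 20 and 21 reads in untreated and 2, 6 and 2 in treated LGR5+ libraries (adjusted p = 0.0049). DESeq2 and the fit of only the LGR5+ libraries each called 5 higher and 4 lower in LGR5+ cells, beside 1818 higher and 1376 lower of 27776 genes in the former and 2206 higher and 1839 lower of 15159 in the latter.

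All 14 EPCAM partners and proteases were tested, and 5 rose in LGR5+ and 4 in LGR5- cells with none lower, at a median of 0.60 and 0.26. *Fhl2*, whose product binds the intracellular fragment of EPCAM, had 3.09 (SE 0.18, adjusted p = 5.0e-07) and 2.33 (SE 0.18, adjusted p = 3.3e-06), the lowest p of the 16157 genes in LGR5+ cells. The protease inhibitor gene *Spint1* had 0.96 (SE 0.16, adjusted p = 8.2e-04) and 0.75 (SE 0.16, adjusted p = 0.0055), the tetraspanin gene *Tspan8* 0.94 (SE 0.20, adjusted p = 0.0056) and 0.95 (SE 0.20, adjusted p = 0.0062), and the E-cadherin gene *Cdh1* 1.07 (SE 0.21, adjusted p = 0.0028) and 0.54 (SE 0.21, adjusted p = 0.093). In fits of only the groups compared, 9 were called higher in LGR5+ and 2 in LGR5- cells, where 2206 of 15159 and 741 of 15360 genes in all were called higher, so the counts of the list moved with those of all genes.

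Around *Bmi1*, 20 of 21 listed polycomb genes were tested, and 5 fell in LGR5+ and 4 in LGR5- cells with none higher, at a median log2 fold change of -0.08 and -0.21. *Ezh2*, the methyltransferase gene of polycomb repressive complex 2, had -1.03 (SE 0.26, adjusted p = 0.013) and -0.95 (SE 0.26, adjusted p = 0.022), and *Suz12*, of the same complex, -1.02 (SE 0.20, adjusted p = 0.0025) and -0.89 (SE 0.19, adjusted p = 0.0066). *Cbx2* and *Pcgf6*, of polycomb repressive complex 1, had -0.69 (SE 0.21, adjusted p = 0.037) and -0.55 (SE 0.16, adjusted p = 0.030) in LGR5+ cells. In LGR5- cells *Cbx2* had -0.89 (SE 0.21, adjusted p = 0.010) and *Pcgf6* -0.59 (SE 0.16, adjusted p = 0.022). The fifth gene in LGR5+ cells was *Pcgf2*, a paralog of *Bmi1*, named here after its value was seen. The LGR5+ count was 1 without treated LGR5+ replicate 2 or 3, 2 without untreated LGR5+ replicate 2 or 3, and 3 without untreated LGR5+ replicate 1. The LGR5- count was 2 without treated LGR5- replicate 2 or 3, and without untreated LGR5- replicate 3 there was 1 gene called higher.

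Around *Aldh1a1*, 18 of 24 aldehyde dehydrogenase and retinoic acid genes were tested, with 5 higher and 2 lower in LGR5+ and 3 higher and 3 lower in LGR5- cells, at a median of 0.35 and 0.08. Over all genes, 9.66% were called higher and 6.37% lower in the LGR5+ gate, against 8.30% and 7.11% in the LGR5- gate. *Aldh1a3*, whose enzyme makes retinoic acid as ALDH1A1 does, lay at 82.4, 65.2 and 84.9 CPM in untreated and 202, 236 and 241 in treated LGR5+ libraries. Its log2 fold change was 1.55 (SE 0.21, adjusted p = 1.8e-04) and 1.32 (SE 0.21, adjusted p = 8.1e-04). The retinol receptor gene *Stra6* had 1.34 (SE 0.24, adjusted p = 0.0018) and 0.80 (SE 0.24, adjusted p = 0.038), and the retinol dehydrogenase gene *Rdh11* -0.62 (SE 0.19, adjusted p = 0.040) and -0.92 (SE 0.19, adjusted p = 0.0055). *Crabp2*, which encodes a retinoic acid carrier, had 0, 7 and 2 reads in untreated and 59, 167 and 131 in treated LGR5+ libraries (adjusted p = 2.1e-04). The 2 lower genes in LGR5+ cells, *Aldh1a7* and *Rdh11*, became 0 without untreated LGR5+ replicate 1 or 3 or treated LGR5+ replicate 2 or 3, and 1 without untreated LGR5+ replicate 2 or treated LGR5+ replicate 1. The LGR5- count of lower genes was 1 without untreated LGR5- replicate 1 or 2 or treated LGR5- replicate 2 or 3, and that of higher genes was 1 without treated LGR5- replicate 2. The plot of the lists shows each tested gene.

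**Figure D4:**
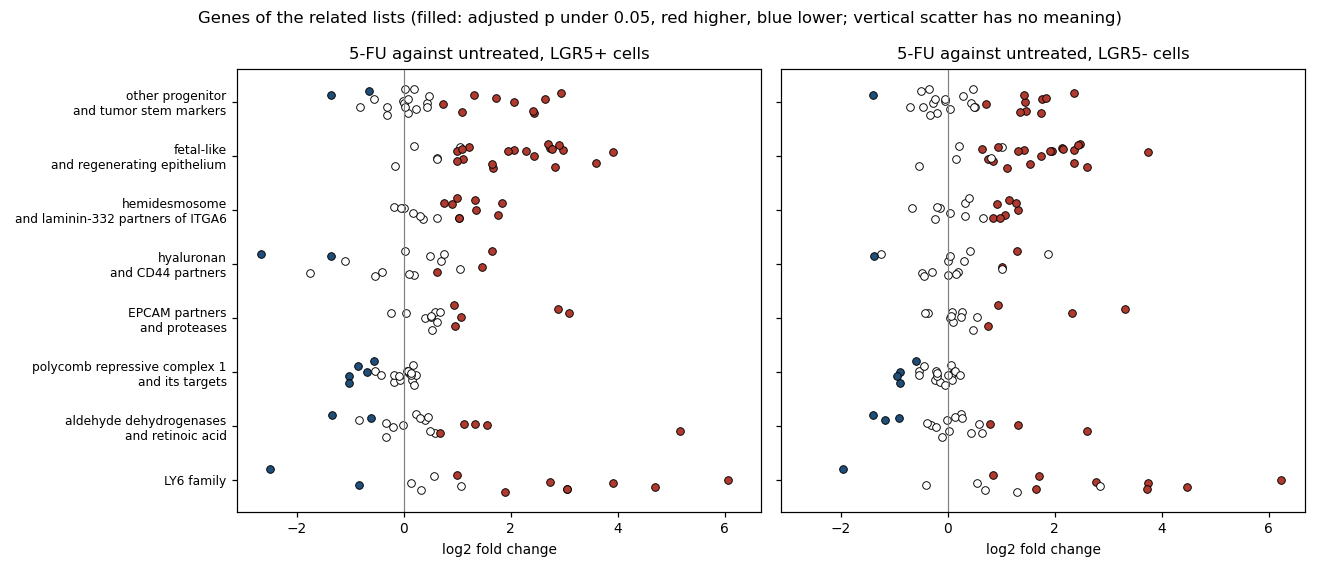
Log2 fold change on 5-FU (horizontal axis) of each tested gene of the 8 lists (rows) in LGR5+ and LGR5- cells, filled where the adjusted p from edgeR was under 0.05. The fetal-like list has 19 filled points to the right of 0 in each panel, and the filled points of the polycomb list, 5 and 4, lie to the left.

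The genes whose log2 CPM followed each marker most closely over the 12 libraries were found by Pearson's r, given as a description since the libraries share 4 groups and their depth. *Clu* was followed by *Timp3* (0.990), *Sdc1* (0.989) and *Col18a1* (0.988), of which *Timp3* and *Col18a1* encode matrix proteins and *Sdc1* a heparan sulfate proteoglycan. *Ly6a* was followed by *Ly6c1* (0.996), *Pnpla1* (0.989) and *Gm15987* (0.987), and *Cd44* by *Ahnak2* (0.987), *Gm14005* (0.986) and *Itgb4* (0.986), the partner of *Itga6* among them. Since *Ly6a* and *Ly6c1* share part of their sequence, shared reads may enter their r, which was not tested. *Prom1* was followed by *Pomt1* (0.982), *Ttk* (0.958) and *Rpap1* (0.956), of which *Ttk* encodes a mitotic kinase. For the markers that were not called, the genes were *Gm5525* (0.965), *Gaa* (0.959) and *Hsp90b1* (0.956) for *Epcam*, *Tagln2* (0.974), *Spint2* (0.944) and *Plscr1* (0.940) for *Cd24a* and *Agpat4* (0.946), *Fam89a* (0.939) and *Capzb* (0.934) for *Aldh1a1*. For *Bmi1* they were *Spata5* (0.908), *Ubox5* (0.899) and *Mettl2* (0.892), and for *Itga6* *Abr* (0.863), *CT010467.1* (0.846) and *Crtc3* (0.823). Among the markers themselves, r was 0.94 for *Ly6a* with *Clu*, 0.94 for *Ly6a* with *Cd44* and -0.86 for *Prom1* with *Cd44*.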

How the data were processed

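RNA from sorted cells was extracted with the RNeasy Micro kit, amplified with SMARTer chemistry and sequenced as paired ends by Novogene. The authors deposited a table of read counts per Ensembl gene. The deposited counts are whole numbers that had not been normalized. The submitters' processing notes name HISAT, HISAT2, TopHat2, HTSeq and the build mm8 without versions or roles, and the annotation release is not given in the sources used here. Positions, exon lengths and sequences were taken from GENCODE M21 on GRCm38, which may differ from the annotation behind the counts. Each column carried the name of 1 sample, and groups came from the labels.

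From the counts, genes were filtered with filterByExpr, scaled by TMM and fitted with edgeR 4.0.16 in R 4.3.3 (robust quasi-likelihood, 1 mean per group, all 12 libraries, common dispersion 0.0708), with contrasts for each gate, each treatment and their interaction. P-values were adjusted by Benjamini-Hochberg over all 16157 genes and called under 0.05. A standard error is the absolute log2 fold change divided by the root of F, and intervals are at 95%. CPM used the TMM-scaled totals, and log2 CPM for correlations a prior count of 2. The analysis was tested on simulated data. Floors of 3 counts cover counting error only, since the reads carry no molecular identifiers. No pair of libraries was a copy by a chi-square test of their counts (lowest value per degree of freedom 4.42, between gates, and 15.1 within groups).

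The markers and lists were chosen with earlier results of these data known. Genes named within a list were up to 4 with an adjusted p under 0.05 on 5-FU in either gate, taken in order of their smallest p; beside them stand paralogs of the markers, *Lgr5* and *Ptprc* as checks of the sort, genes a result turned on (some that the rule gives are not reported here), and the 3 genes most like each marker by Pearson's r. Same-numbered libraries deviated together after 5-FU (correlations of 0.217 to 0.571, every pair above the limit of 0.1, and each library closest to its own number), so pairing by number was used there as well. They did not in untreated cells (-0.119 to 0.481), in LGR5+ cells (-0.168 to 0.0184) or in LGR5- cells (0.0546 to 0.425). The 8 alternatives were other size factors, library size only, DESeq2 1.42.0, no filter on low counts, a minimum of 10 reads in each library, a replicate block, only the groups compared, and leaving out each library. A pair of alternatives was added after seeing the data.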

Additional observations from a re-analysis of the deposited data

How the results depend on the processing

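The 4 markers called on 5-FU in LGR5+ cells and the 4 in LGR5- cells were called under all alternatives run, and no marker lost a call. Of 675 marker values recomputed, 626 kept their direction and their side of the threshold, 5 newly passed it (*Clu* between the treated gates in 2 settings, *Cd24a* on 5-FU in LGR5+ cells in 2 and *Aldh1a1* there in 1), and 44 changed sign, none of them a called value. Between the treated gates, 11 genes were called without the filter on low counts, 75 by DESeq2 and 451 with the replicate block in a fit of the 6 treated libraries, which was chosen after seeing the data; 1 marker, *Clu*, was called in each of the latter 2, and the count was 0 in the replicate block over all 12 libraries. That block gave 2967 calls on 5-FU in LGR5+ and 2890 in LGR5- cells and changed no marker's call. Fits of only the groups compared gave 4045 and 1282. Leaving out 1 library gave 1373 to 2488 calls in LGR5+ cells (1586 without untreated replicate 3, 1451 without treated replicate 2 and 1373 without treated replicate 3) and 1562 to 3418 in LGR5- cells (1562 without untreated replicate 1, 1645 without untreated replicate 2 and 1647 without treated replicate 2). The cause was not tested. Scaling by library size moved the median of all genes in the interaction by -0.11 on the log2 scale. The values that changed sign were uncalled and at most 0.533 in size. With library size only, *Aldh1a1* was -0.00125 between the treated gates and -0.081 in the interaction. Without the filter, *Cd44* was 0.031 between the untreated gates and *Aldh1a1* -0.00131 in the interaction. *Cd44* between the untreated gates was 0.00204 with DESeq2 and 0.00047 with the replicate block, where *Itga6* on 5-FU in LGR5+ cells was 0.00117. Without both LGR5- replicate 3 libraries, an alternative chosen after seeing the data, the differences between the untreated gates were 0.213 for *Cd44*, -0.095 for *Cd24a*, -0.111 for *Aldh1a1* and -0.110 for *Bmi1*, those between the treated gates 0.115 for *Cd44* and -0.084 for *Aldh1a1*, and the interaction of *Ly6a* 0.367. When 1 library was left out, the values between the untreated gates ranged over -0.234 to 0.213 for *Cd44*, -0.095 to 0.119 for *Cd24a*, -0.111 to 0.158 for *Aldh1a1*, -0.243 to 0.388 for *Bmi1* and -0.149 to 0.136 for *Itga6*. Between the treated gates they ranged over -0.179 to 0.081 for *Cd44* and -0.118 to 0.226 for *Aldh1a1*. On 5-FU, *Itga6* ranged over -0.095 to 0.179 in LGR5+ cells, and *Cd24a* over -0.0013 to 0.213 and *Bmi1* over -0.296 to 0.200 in LGR5- cells. In the interaction, *Cd44* ranged over -0.285 to 0.168, *Aldh1a1* over -0.171 to 0.214 and *Ly6a* over -0.275 to 0.533. Of 432 counts of listed genes, 385 stayed within 1.5 times and 47 did not. With 3 libraries per group and a biological coefficient of variation of 26.6%, the number of libraries limits the width of the intervals.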
